A study of Mus musculus with 96 samples.

Results

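The hippocampus of untreated (naive) mice was compared between 18 months (3 libraries, replicates 3, 6 and 9) and 2 months (4 libraries, replicates 12, 14, 17 and 20) of age. These 7 libraries were chosen by their titles, among 96 in the series. All 7 mice were male C57BL/6J, a common inbred strain, and carried no transgene or injection. Each library is bulk mRNA of 1 mouse, so fewer cells of a type and less RNA per cell cannot be told apart. The young mice are labelled 2 months, whereas the description of the series gives 3 months. A second number in the titles is shared by all the 18-month naive mice and another by all the 2-month naive mice, so whatever it stands for cannot be told apart from age. Total counts were 2555493, 4097126 and 14004581 in the 18-month libraries, against 8832629, 16813520, 11142184 and 1816018 in the 2-month libraries. Of 35486 listed genes, 18070 had enough counts to be tested.

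The hippocampus holds the dentate gyrus, whose granule neurons express the transcription factor Prox1, and the pyramidal neurons of the CA fields, with the neocortex lying directly above. Microglia are its resident macrophages, and complement proteins made by microglia and astrocytes tag synapses and debris for them. Oligodendrocytes wrap axons in myelin and arise from precursors that pass through a committed, premyelinating stage.

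Prox1 levels and regional markers differed between the young libraries. Prox1 had 68.5, 73.7 and 78.8 CPM (counts scaled to 1000000 per library) in the 18-month libraries, against 94.5, 17.2, 91.7 and 29.2 CPM in the 2-month libraries. Young replicates 14 and 20 lay below 39.4 CPM, which is 50% of the median of the 29 hippocampus libraries of the same experiment, and the median of the naive cortex libraries was 15.4 CPM. The means, 73.7 ± 5.18 CPM at 18 months (SD, n = 3) and 58.2 ± 40.7 CPM at 2 months (SD, n = 4), did not differ beyond this spread (exact two-sided permutation test, p = 0.571, where the smallest p that 3 against 4 libraries allow is 0.0571). The age groups overlapped because the young libraries fell both above and below all the old ones.

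A region score was built from 52 genes that were at least 4-fold higher in the hippocampus than in the cortex and 42 with the opposite pattern, chosen on the injected mice. It is the mean log2(CPM + 0.5) of the first set minus that of the second. Prox1 is itself among the 52 genes, so the score and Prox1 are not independent measures. The score was 2.25, 2.13 and 2.66 in the 18-month libraries, against 3.16, -1.37, 3.10 and 1.95 in the 2-month libraries. Replicate 14 was the lowest of the 29 hippocampus libraries and lay within the range of the cortex libraries, -2.94 to -0.77.

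**Figure D1:**
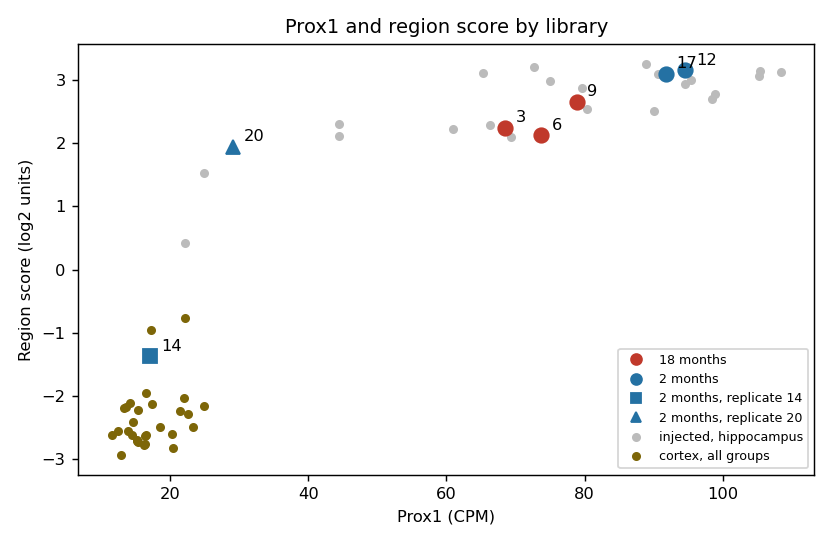
Prox1 (x axis, CPM) and the region score (y axis, log2 units) in each hippocampus and cortex library, with naive hippocampus libraries numbered by replicate. Young replicate 14 sits among the cortex libraries at 17.2 CPM and a score of -1.37, and young replicate 20 at 29.2 CPM and 1.95, left of the 18-month libraries at 68.5 to 78.8 CPM.

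The low-Prox1 young libraries differed from each other in what they held. Lamp5, a membrane protein of the LAMP family and a marker of upper-layer cortical neurons, had 43.8, 59.6 and 39.3 CPM in the 18-month libraries, against 30.9, 182, 36.3 and 42.4 CPM in the 2-month libraries. Only replicate 14 of the 7 was high. The summed CPM of 19 cortical neuron genes was also highest there, at 1681, against 986 to 1163 in the other libraries. Lmo3, Etv1 and Hs3st4 of that list went the other way and were lowest in replicate 14, at 54.8, 73.2 and 28.0 CPM. Fibcd1, a marker of CA1 pyramidal neurons, had 178, 173 and 142 CPM in the 18-month libraries, against 188, 20.9, 181 and 117 CPM in the 2-month libraries, so replicate 14 was low and replicate 20 less so. Dsp, or desmoplakin, which dentate granule neurons express, had 9.00, 11.0 and 10.1 CPM in the 18-month libraries, against 20.6, 0.0595, 20.3 and 3.30 CPM in the 2-month libraries. Here both replicates 14 and 20 were low and replicates 12 and 17 were higher than every old library. Other genes of the dentate granule neuron list went the other way in replicate 20, where C1ql3, Calb1 and Plk5 were the highest of the 7, at 74.9, 206 and 31.9 CPM. The summed CPM of the 12 genes on that list was 443, 503 and 512 in the 18-month libraries, against 618, 385, 578 and 471 in the 2-month libraries, so replicate 20 lay within the range of the old libraries and replicate 14 below it. Replicate 20 also had the highest Penk, the enkephalin precursor of striatal neurons, with 80.4 CPM, against 28.2 to 40.0 CPM in the other 6 libraries. The summed CPM of 18 striatal and thalamic genes was 578 there and 532 in replicate 14, against 379 to 457 in the remaining libraries. Prkcd and Plekhg1 of that list went the other way and were lowest in replicate 20, at 8.81 and 12.1 CPM. Young replicate 17 had 217 CPM of Ttr, the transthyretin of the choroid plexus, against 4.52 to 67.4 CPM in the others. Gabra6, a receptor subunit of cerebellar granule cells, was at 0 in all 7. Over 16 summed or scored measures the smallest exact p was 0.114, and with these group sizes none could have passed.

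The median log2 fold change of 18 over 2 months was -0.01, with 8499 of the tested genes higher and 9567 lower, and 403 genes differed by more than 1 on the log2 scale, of which 33 had a mean of at least 5 CPM. By edgeR's quasi-likelihood test 13 genes passed an adjusted p of 0.05, 0.0719% of those tested, with 12 higher (0.0664%) and 1 lower (0.00553%). At an unadjusted p under 0.05, 594 genes were higher (3.29%) and 561 lower (3.1%). The groups did not overlap in 817 genes that were higher (4.52%) and 323 that were lower (1.79%). DESeq2 called 24 genes, a fit of the 7 libraries alone 0 in edgeR, with 646 at an unadjusted p under 0.05, and leaving out 1 library at a time 2 to 9, the fewest without 18-month replicate 6. The 12 higher genes included complement and microglial genes, an alarmin, a nuclear noncoding RNA and a class I histocompatibility gene, and the lower one was a receptor of premyelinating oligodendrocytes.

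Among complement genes, C4b encodes the fourth component, whose cleavage tags surfaces for uptake. It lies on chromosome 17 from 34728380 to 34743882 in GRCm38. C4b had 108, 174 and 104 CPM in the 18-month libraries, against 35.2, 15.5, 29.7 and 19.8 CPM in the 2-month libraries. Every old library exceeded every young one. The log2 fold change was 2.30 ± 0.24 (SE; adjusted p = 5.97e-06, edgeR). Of the 50-base stretches in its transcripts, 34.6% also occur in other genes, mostly C4a, so the split of reads between these copies is uncertain. C4a itself had means of 1.19 ± 0.395 CPM at 18 months (SD, n = 3) and 1.25 ± 0.817 CPM at 2 months (SD, n = 4).

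C1qa, a chain of C1q, which starts the classical pathway and is made by microglia, had 45.4, 52.2 and 44.8 CPM in the 18-month libraries, against 29.8, 31.8, 27.6 and 42.4 CPM in the 2-month libraries. The groups did not overlap, although young replicate 20 came close. Group means of injected hippocampus libraries of both experiments, at 18 to 22 months, were 36.8 to 43.2 CPM, below every naive 18-month library. Single injected libraries ranged from 29.4 to 52.1 CPM and overlapped both naive groups. The log2 fold change of C1qa was 0.54 ± 0.11 (SE; adjusted p = 0.0367, edgeR). The companion chain C1qb, at 0.43 ± 0.11, did not pass (adjusted p = 0.228). C3, the central component, averaged 5.42 ± 3.36 CPM at 18 months (SD, n = 3) and 0.501 ± 0.453 CPM at 2 months (SD, n = 4) and did not pass (adjusted p = 0.184). Of 16 complement genes tested, 11 were higher, 2 of them past the threshold, with a median log2 fold change of 0.19, against -0.01 over all genes. Of all 18070 tested genes, 8499 were higher and 0.0664% were higher past the threshold.

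Microglial and lysosomal genes came next. Ctss, the lysosomal protease cathepsin S, had 70.8, 78.3 and 69.5 CPM in the 18-month libraries, against 45.1, 38.6, 36.9 and 49.6 CPM in the 2-month libraries. The groups were well apart, and the log2 fold change was 0.77 ± 0.13 (SE; adjusted p = 0.00781, edgeR). Group means of injected hippocampus libraries of both experiments were 50.7 to 62.5 CPM, above every young library and below every naive 18-month one. Single injected libraries ranged from 46.8 to 76.9 CPM and overlapped both naive groups.

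Several other microglial or lysosomal genes did not pass. The cathepsins Ctsb and Ctsd differed by 0.06 ± 0.08 and 0.18 ± 0.12 (adjusted p = 0.997 and 0.893, edgeR), with overlapping groups. Tyrobp, an adaptor of microglial receptors, differed by 0.66 ± 0.15 (adjusted p = 0.157), Lyz2, the myeloid lysozyme, by 1.17 ± 0.32 (adjusted p = 0.295) and Tmem119, a marker of resting microglia, by 0.29 ± 0.10 (adjusted p = 0.565). Of the homeostatic microglia genes 13 of 15 were higher and 1 passed, with a median of 0.21, where 8499 of all 18070 genes were higher and 0.0664% passed so. Of the activated microglia genes 17 of 20 were higher and 1 passed, with a median of 0.22. The summed CPM of the homeostatic list was 799 to 843 at 18 months and 669 to 835 at 2 months, so the groups overlapped.

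The promoter of Ctss is shown because the gene passed in 14 of 18 alternative settings and a motif bound by a factor of microglia was searched for in it. The sequence is from RefSeq, GRCm38.p6, chr3:95526536-95526835, plus strand, 250 bases before to 50 after the start. Capitals mark matches on either strand to GAGGAA, a core bound by the myeloid factor PU.1.
Ctss: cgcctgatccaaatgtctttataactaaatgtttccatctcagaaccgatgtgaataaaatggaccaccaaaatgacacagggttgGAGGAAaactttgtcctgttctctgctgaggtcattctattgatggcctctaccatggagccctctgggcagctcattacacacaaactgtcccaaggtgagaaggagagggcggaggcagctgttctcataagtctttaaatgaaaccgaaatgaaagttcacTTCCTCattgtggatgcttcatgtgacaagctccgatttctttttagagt
The window had 2 matches. Of 32851 promoters of this length, 28.3% held at least 1, and a match is a description, not a binding site. Of the 13 genes, 7 had a promoter in that table. Abca8a had 1 match, Prrg1 1 in each of its windows, Il33 2 in 1 window and 0 in another. Gatm, H2-Q6 and Spag6 had 0. Passing in many settings does not single out Ctss, as Il33, whose windows are not shown, passed in 15 of 18.

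Antigen presentation was led by H2-Q6, a nonclassical class I gene. It had 3.52, 4.39 and 2.36 CPM in the 18-month libraries, against 0.226, 0.595, 0.269 and 0 CPM in the 2-month libraries. These are 9, 18 and 33 counts, against 2, 10, 3 and 0 counts, and the 0 in young replicate 20 allows up to 1.65 CPM. All the old libraries were higher. The fitted log2 fold change was 3.04 ± 0.59 (SE; adjusted p = 0.0367, edgeR). H2-Q7 had 1.17, 5.37 and 2.14 CPM in the 18-month libraries, against 0.793, 0.119, 0.0897 and 1.10 CPM in the 2-month libraries, and did not pass (adjusted p = 0.141). Of the 50-base stretches of H2-Q6, 32.0% occur in other genes, mostly H2-Q7, so each value is uncertain.

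Their promoters are shown because they make the likeness of the copies visible. Both are from RefSeq, GRCm38.p6, plus strand, at chr17:35424600-35424899 for H2-Q6 and chr17:35438905-35439204 for H2-Q7. Capitals mark bases that differ or have no partner within the aligned stretch.
H2-Q6: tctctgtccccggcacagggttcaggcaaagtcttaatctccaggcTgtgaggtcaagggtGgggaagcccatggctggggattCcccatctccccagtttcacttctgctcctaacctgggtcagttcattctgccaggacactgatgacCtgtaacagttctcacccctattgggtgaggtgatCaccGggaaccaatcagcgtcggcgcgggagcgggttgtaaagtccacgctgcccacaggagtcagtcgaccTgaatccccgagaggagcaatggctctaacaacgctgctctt
H2-Q7: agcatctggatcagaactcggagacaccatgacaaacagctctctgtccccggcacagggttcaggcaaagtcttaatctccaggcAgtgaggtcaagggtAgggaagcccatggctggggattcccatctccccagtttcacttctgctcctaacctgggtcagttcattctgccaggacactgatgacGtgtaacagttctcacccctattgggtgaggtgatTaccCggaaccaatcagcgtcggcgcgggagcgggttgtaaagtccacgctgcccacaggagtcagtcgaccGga
Of 260 aligned bases 254 were identical, 97.7%.

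Among classical class I genes and their partners none passed. B2m, the shared light chain, had 84.9, 103 and 82.8 CPM in the 18-month libraries, against 59.8, 69.8, 66.6 and 63.3 CPM in the 2-month libraries (log2 fold change 0.44 ± 0.13, adjusted p = 0.400). The groups did not overlap. H2-D1 differed by 0.52 ± 0.19 and H2-K1 by 0.57 ± 0.22 (adjusted p = 0.581 and 0.641). Of 16 class I genes tested 12 were higher and 1 passed, with a median of 0.60. Of 25 interferon response genes 24 were higher and 0 passed in edgeR, with 8 at an unadjusted p under 0.05 and a median of 0.49. Among all 18070 tested genes 8499 were higher, 3.29% of the total at an unadjusted p under 0.05 and 0.0664% past the threshold. Both lists leaned on 18-month replicate 6. Without it the interferon median was 0.31, with 21 of 26 higher and 1 at an unadjusted p under 0.05 in edgeR. The class I median was then 0.32, with 13 of 16 higher and 6 at an unadjusted p under 0.05, against 10 with all libraries. Gbp2, an interferon-induced GTPase, averaged 4.72 ± 0.879 CPM at 18 months (SD, n = 3) and 2.04 ± 0.450 CPM at 2 months (SD, n = 4).

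Glial genes of other kinds were also higher. Il33, a nuclear alarmin made by oligodendrocytes and astrocytes, had 106, 98.8 and 82.2 CPM in the 18-month libraries, against 41.9, 46.8, 44.1 and 45.7 CPM in the 2-month libraries. The young values lay close together and all below the old ones. It rose by 1.05 ± 0.17 (SE; adjusted p = 0.00427, edgeR). Gatm, the first enzyme of creatine synthesis, had 282, 291 and 226 CPM in the 18-month libraries, against 145, 143, 161 and 133 CPM in the 2-month libraries, with no overlap. It rose by 0.83 ± 0.16 (SE; adjusted p = 0.0367, edgeR).

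Neat1, the noncoding RNA that builds nuclear paraspeckles, had 112, 170 and 111 CPM in the 18-month libraries, against 49.6, 60.1, 46.8 and 31.4 CPM in the 2-month libraries. Old replicate 6 was the highest, and no young library reached an old one. It rose by 1.39 ± 0.22 (SE; adjusted p = 0.00427, edgeR). Gfap, the astrocyte filament protein, had 553, 717 and 529 CPM in the 18-month libraries, against 496, 229, 448 and 369 CPM in the 2-month libraries. The groups did not overlap, with young replicate 14 the lowest, and it did not pass (0.60 ± 0.21, adjusted p = 0.581). C4b and Gfap are themselves among the 52 hippocampus-high genes. Serpina3n, a reactive astrocyte gene, had 26.6, 31.7 and 35.1 CPM in the 18-month libraries, against 37.5, 4.40, 41.6 and 20.9 CPM in the 2-month libraries, so replicates 12 and 17 exceeded all the old libraries.

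The remaining genes past the threshold were at lower levels. Abca8a, a lipid transporter, had 13.3, 16.6 and 12.5 CPM in the 18-month libraries, against 7.25, 4.28, 7.99 and 4.41 CPM in the 2-month libraries. Prrg1, a membrane protein with a Gla domain, had 14.9, 19.0 and 13.4 CPM in the 18-month libraries, against 7.70, 7.67, 6.73 and 6.61 CPM in the 2-month libraries. Both were without overlap and rose by 1.14 ± 0.22 and 1.06 ± 0.21 (SE; adjusted p = 0.0367 each, edgeR). Spag6, a protein of the ciliary axoneme, had 5.09, 6.35 and 5.71 CPM in the 18-month libraries, against 0.906, 2.68, 1.44 and 0 CPM in the 2-month libraries. It rose by 1.78 ± 0.35 (SE; adjusted p = 0.0367, edgeR), and every group of injected hippocampus libraries averaged 4.93 to 5.98 CPM. Ppl, the plakin periplakin, had 4.30, 2.44 and 3.64 CPM in the 18-month libraries, against 1.25, 1.37, 1.08 and 0.551 CPM in the 2-month libraries, and rose by 1.49 ± 0.29 (SE; adjusted p = 0.0367, edgeR).

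The oligodendrocyte lineage showed the only gene that fell. Gpr17, a receptor of committed precursors, had 28.2, 25.6 and 25.9 CPM in the 18-month libraries, against 39.6, 52.8, 41.6 and 53.4 CPM in the 2-month libraries. Both pairs of young libraries, with high and with low Prox1, lay above every old one. It fell by 0.85 on the log2 scale (SE 0.12, adjusted p = 0.00202, edgeR). Gpr17 overlaps Lims2, which lies on the other strand and was lower without passing (adjusted p = 0.565).

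Myelin genes were higher without passing. All 20 tested were so, 9 at an unadjusted p under 0.05 and 0 past the threshold in edgeR, with a median of 0.48. Over all 18070 tested genes, 8499 were higher, and 3.29% were higher at an unadjusted p under 0.05. Mbp, myelin basic protein, had 3256, 4160 and 2909 CPM in the 18-month libraries, against 2338, 2651, 2994 and 1615 CPM in the 2-month libraries, and young replicate 17 exceeded 1 old library. Trf, the transferrin of oligodendrocytes, differed by 0.99 ± 0.26 (adjusted p = 0.290) and Hapln2, a link protein of nodes of Ranvier, by 0.99 ± 0.23 (adjusted p = 0.148). The summed myelin CPM was 7235 to 10091 at 18 months and 4167 to 7371 at 2 months (exact p = 0.114).

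**Figure D2:**
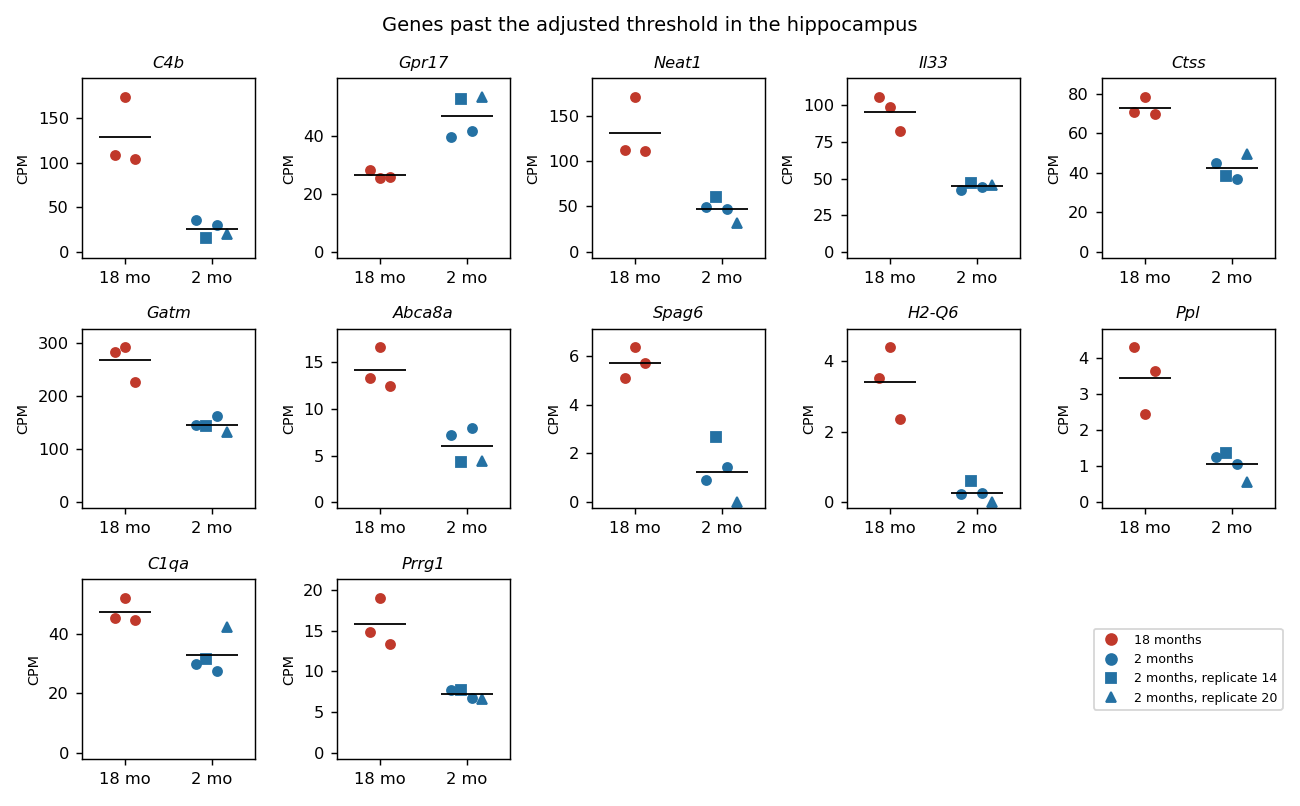
CPM (y axis) of 12 of the 13 genes past the threshold in each library, 18 months left and 2 months right, with bars at the group means. Squares and triangles mark young replicates 14 and 20. The 2 groups do not overlap in any panel, as for C4b, at 104 to 174 CPM against 15.5 to 35.2 CPM.

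Lower values short of the threshold were found in matrix, vessel and developmental genes. Ncan, the proteoglycan neurocan, had 290, 301 and 339 CPM in the 18-month libraries, against 362, 420, 350 and 432 CPM in the 2-month libraries, with no overlap (-0.36 ± 0.08, adjusted p = 0.105). Mfsd2a, a lipid transporter of the blood-brain barrier, had 10.2, 13.2 and 11.4 CPM in the 18-month libraries, against 18.5, 17.7, 15.2 and 17.6 CPM in the 2-month libraries, also with no overlap (adjusted p = 0.280). Sox11, a transcription factor of immature neurons, averaged 53.3 ± 3.91 CPM at 18 months (SD, n = 3) and 77.7 ± 15.7 CPM at 2 months (SD, n = 4; adjusted p = 0.509). Of the collagen and matrix genes 16 of 20 were lower, with a median of -0.23, of the immature neuron genes 13 of 17, with a median of -0.17, and of the cell division genes 8 of 13, with a median of -0.19. In these 3 lists 0 genes passed in edgeR, with 6, 4 and 2 lower at an unadjusted p under 0.05. Of all 18070 tested genes 9567 were lower, with a median of -0.01, and 3.1% were lower at an unadjusted p under 0.05. Without the low-Prox1 young libraries the immature neuron median shrank to -0.07, with 11 of 18 lower. The matrix median was then -0.22, with 15 of 20 lower, and the cell division median -0.24, with 9 of 13 lower. Of the endothelium and blood-brain barrier genes 15 of 19 were lower with all libraries, with a median of -0.14, and 0 passed in edgeR. Without the 4 hippocampus libraries of low Prox1, which include the young pair, that median shrank to -0.04, with 11 of 19 lower. Among genes short of the threshold that were higher, Ide, the insulin-degrading enzyme, came closest, with 114, 98.6 and 104 CPM in the 18-month libraries, against 77.3, 73.7, 57.0 and 72.7 CPM in the 2-month libraries (0.56 ± 0.12, adjusted p = 0.0734).

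Leaving out young replicates 14 and 20 left 3 old and 2 young libraries and gave 12 genes past the threshold, 0.0654% of 18348. Of them 7 were shared with the 13, namely C4b, Spag6, C1qa, Neat1, Il33, Ctss and Gpr17. C4b differed by 1.95 ± 0.25 and Gpr17 by -0.66 ± 0.13 in that fit (adjusted p = 0.000469 and 0.0417, edgeR). Gatm, Abca8a, H2-Q6, Ppl and Prrg1 kept their sign at adjusted p of 0.125 to 0.449. The additional 5 were Lama3, Btaf1, Ephx2, Unc93b1 and Tfrc, of which Lama3, Btaf1 and Ephx2 are named after their values were seen. Tfrc, the transferrin receptor, had 59.9, 57.4 and 54.3 CPM in the 18-month libraries, against 86.3, 94.4, 95.7 and 58.9 CPM in the 2-month libraries, where replicate 20 alone lay near the old ones. At an unadjusted p under 0.05, 563 genes were higher (3.07%) and 330 lower (1.8%) without the pair.

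The medians of lists of regional and neuronal identity changed sign with this choice. The pair was chosen for low Prox1, which belongs to the dentate granule neuron list and to the 52 hippocampus-high genes. A fall of these 2 lists without the pair was therefore partly fixed in advance. The median of the 42 cortex-high genes was -0.62 with all 7 libraries, with 3 of 42 higher, and 0.51 without the pair, with 39 of 42 higher. That of the 52 hippocampus-high genes was 0.17 and -0.28, with 43 and 4 of 52 higher. The dentate granule neuron list moved to -0.37 without the pair, against 0.04 with it, and the cortical neuron list to 0.20, against -0.33. Immediate early genes, which neurons switch on with activity, moved to 0.26, with 15 of 16 higher, against -0.31, with 1 of 16 higher. Egr1, one of them, had 215, 252 and 176 CPM in the 18-month libraries, against 159, 710, 210 and 156 CPM in the 2-month libraries, so replicate 14 alone was high. Arc, another, behaved alike, with 894 CPM in replicate 14 and 148 to 429 CPM in the other 6 libraries.

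The immune and myelin lists kept their sign. Without the pair the median was 0.27 for complement, 0.55 for class I, 0.46 for interferon response, 0.42 for activated microglia and 0.38 for myelin, where 19 of 20 were higher. Over 18066 genes in both fits, 1257 log2 fold changes moved by more than 0.5, while the median moved by 0.00345. Of 1154 genes at an unadjusted p under 0.05 with all libraries, 388 were again under 0.05 with the same sign without the pair. The part of dissection in the genes that moved was not tested.

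**Figure D3:**
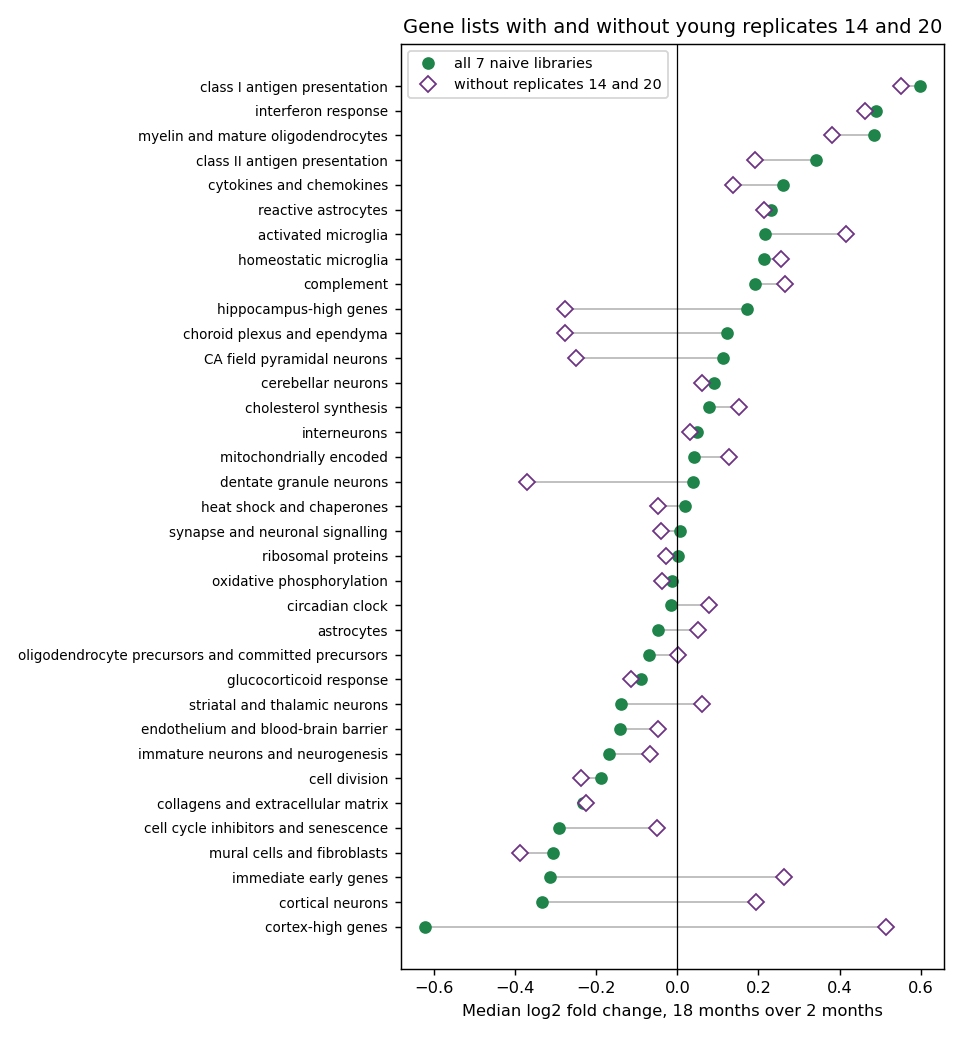
Median log2 fold change (x axis, 18 over 2 months) of each gene list, with all 7 naive libraries (filled circles) and without young replicates 14 and 20 (open diamonds). Class I and myelin stay to the right at 0.60 and 0.55 and at 0.48 and 0.38, whereas cortex-high genes cross zero, at -0.62 and 0.51.

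**Figure D4:**
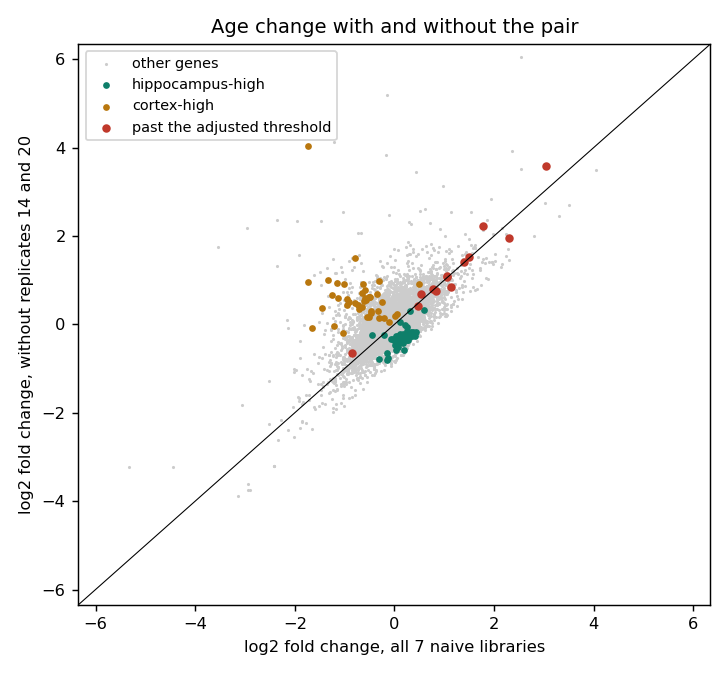
Log2 fold change of each gene with all 7 naive libraries (x axis) and without young replicates 14 and 20 (y axis), with the line of equality. Most cortex-high genes lie above the line, most hippocampus-high genes below it, and the 13 genes past the threshold along it, C4b at 2.30 and 1.95.

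The age change of the hippocampus was set against those of the cortex and cerebellum of the same mice, in 1 fit of 87 libraries with 19490 genes. Against the cortex, 0 genes differed in edgeR (0%), with 889 at an unadjusted p under 0.05, and 0 in limma-voom. C4b changed by 2.30 ± 0.28 in the hippocampus, 1.47 ± 0.34 in the cortex and 2.13 ± 0.35 in the cerebellum in that fit (SE), and Gpr17 by -0.85 ± 0.18, -1.28 ± 0.19 and -1.31 ± 0.21. Both passed in each region (adjusted p of 0.0451 or less).

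Against the cerebellum, 9 genes had a lower age change in the hippocampus (0.0462%) and 1 a higher one (0.00513%). The log2 fold change of Fcer1g, a signalling chain of myeloid Fc receptors, was 0.11 ± 0.15 in the hippocampus and 1.45 ± 0.20 in the cerebellum, a difference of -1.34 ± 0.26 (SE; adjusted p = 0.00977, edgeR). That of C1qc, the third C1q chain, was 0.14 ± 0.14 in the hippocampus and 1.24 ± 0.17 in the cerebellum, a difference of -1.10 ± 0.22 (adjusted p = 0.0163). Fam163b differed by -1.70 ± 0.36 and Cers4, a ceramide synthase, by -0.57 ± 0.12 (adjusted p = 0.0286 each). Trank1 and Cd46, a complement regulator, differed by -1.13 ± 0.19 and -1.07 ± 0.21 (adjusted p = 0.00105 and 0.00977). Uqcc1, an assembly factor of respiratory complex III, was the higher one, at 0.48 ± 0.11 (adjusted p = 0.0370), and did not pass with the mouse as a block (adjusted p = 0.0740). Without mouse 14, 0 of the 10 passed in edgeR, with 1304 genes at an unadjusted p under 0.05, and without the hippocampus libraries of replicates 14 and 20, 2 of the 10 did, Fcer1g and Fam163b.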

How the data were processed

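Bulk hippocampus mRNA of naive mice was analysed from the raw count per gene symbol and library that the authors deposited, with no normalization. Per the labels' protocols, RNA was amplified by Smart-Seq2 and tagged with Nextera XT, without strand. Per the submitters' processing notes, Trim Galore 0.3.7, STAR 2.5.3a, GRCm38 and DESeq2 were used, and the counting tool is not given in the sources used here. Counts were fitted in R 4.3.3 with edgeR 4.0.16 (TMM, filterByExpr with a minimum count of 10 and total of 15, quasi-likelihood test) over 29 hippocampus libraries, 22 of them from injected mice, which lend their spread. Benjamini-Hochberg adjustment ran over every tested gene, at a threshold of 0.05. SE is the log2 fold change divided by the root of the F statistic. Alternatives used DESeq2 1.42.0 and limma 3.58.1. Scripts were tested on simulated data.

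Members, lists and rules were chosen with earlier results of these data known. The genes named are those past the threshold, those closest to it with groups that do not overlap and at least 5 CPM, and members of each list by p or level, and some that met the rule are not reported here. Region-score genes needed a median of at least 20 CPM in the higher region. Gene positions are from GENCODE annotation of GRCm38. Libraries of the same animal number come from the same mouse, and over 29 mice their deviations from group means correlated with a median of 0.06 between hippocampus and cortex and 0.0256 between hippocampus and cerebellum. Limits for a count of 0 are 3 counts per library and cover counting error only.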

Additional observations from a re-analysis of the deposited data

Results flagged for a closer look

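In the 4 young libraries, 105 quantities were examined for a single library far from the other 3, and 8 stood apart, where chance alone marks about 1 in 20. Young replicate 14 accounted for 6 of them. It had 1038 CPM of Cx3cl1, 330 CPM of Homer1, 64.7 CPM of Cdkn1a and 710 CPM of Egr1. It also had a median of 35.4 CPM over the cortex-high genes and a summed 1681 CPM of cortical neuron markers. Young replicate 17 had the lowest Ctsd, 308 CPM, and young replicate 20 the highest Marcksl1, 117 CPM. The 18-month group, with 3 libraries, was not examined in this way.

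The log2 age change differed between hippocampus and cerebellum, by the test of the difference itself, in 10 genes, of which 9 are given here. The difference was -1.13 for Trank1, -0.98 for A330023F24Rik, -1.34 for Fcer1g, -1.07 for Cd46, -1.10 for C1qc, -1.70 for Fam163b, -0.57 for Cers4 and 0.48 for Uqcc1. The fitted value for Mslnl was -11.60, which is no bound, since Mslnl was at 0 in every 18-month hippocampus library and every 2-month cerebellum library, and at 1.31 CPM in young hippocampus replicate 14. With the mouse as a block Mslnl did not pass (adjusted p = 0.0740).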

How the results depend on the processing

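Against 13 genes past the threshold, DESeq2 called 24 and a fit of all 87 libraries, chosen after seeing the data, called 35, which include 13 and 12 of the 13. A fit of the 7 naive libraries alone called 0 in edgeR, with 646 genes at an unadjusted p under 0.05, and leaving out libraries under 2500000 counts called 8. Leaving out 1 library at a time gave 2 to 9, with 3, 2 and 6 without 18-month replicates 3, 6 and 9 and 6, 5, 9 and 8 without 2-month replicates 12, 14, 17 and 20. Limma-voom, RLE size factors, no filter, region or choroid scores as covariates, and low-Prox1 libraries left out gave 10 to 16. The 13 genes kept their direction in all 234 values and fell short of the threshold in 94. C4b and Gpr17 passed in 17 of 18 settings. Ppl passed in only 3, H2-Q6 and Prrg1 in 6 each, Abca8a in 7 and Gatm in 9. C1qa, Spag6, Ctss, Il33 and Neat1 passed in 10 to 16. The 13 were chosen in these same libraries and their groups did not overlap, so the kept direction was largely fixed in advance. Of 648 list medians under the alternatives, 620 moved by less than 1 SD between libraries. That SD was pooled over the same 7 libraries, so it includes the spread that replicate 14 adds to lists of regional identity. A median could change sign and still count among the 620. The difference from the cortex gave 0 to 1 genes with 1 mouse left out. The difference from the cerebellum, 10 genes, gave 0 with naive libraries alone, 4 without the hippocampus libraries of replicates 14 and 20, and 0 to 9 with 1 mouse left out, with 5, 4 and 1 without 18-month mice 3, 6 and 9 and 0 without 2-month mouse 14. With the mouse as a replicate block it gave 9, and 0 against the cortex, and no other call among the 10 changed than Uqcc1 and Mslnl.

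Some genes short of the threshold reversed. Without the 4 low-Prox1 libraries and without replicates 14 and 20, the log2 fold change was -0.35 and -0.35 for Serpina3n, -0.36 and -0.36 for Prox1, 0.073 and 0.072 for Tubb3, 0.17 and 0.17 for Egr1, 0.41 and 0.41 for Arc and 0.076 and 0.075 for Aldoc. Those libraries were left out for their low Prox1, so the reversal of Prox1 itself was largely fixed by that choice. Limma-voom gave 0.012 for Tubb3, 0.11 for Egr1 and 0.39 for Arc. The region score as covariate gave 0.054 for Arc and 0.017 for Sst, and Sst was 0.012 without libraries under 2500000 counts. With 1 library left out the range was -0.20 to 0.64 for Serpina3n, -0.094 to 0.59 for Prox1, -0.11 to 0.011 for Tubb3, -0.81 to 0.24 for Egr1 and -0.63 to 0.44 for Arc, each crossing zero without 2-month replicate 14. It was -0.069 to 0.10 for Slc1a2 and -0.21 to 0.072 for Sst. The causes were not tested. The shallowest library, with 1816018 counts, limits what is seen below 1.65 CPM.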
